A study of Mus musculus with 4 samples.

Results

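The genes described here make sterols and fatty acids or control that synthesis, and they were followed in C2C12 cells, a mouse myoblast line that fuses into myotubes when serum is lowered. They were chosen by symbol from a list of 37 genes, of which 36 were analysed. Each of the 36 had a mean over the 4 libraries of at least 0.5 FPKM. FPKM stands for fragments counted per kilobase of a transcript and set against the fragment total of the library. Mvd was not analysed here. The files list 13824 gene symbols in all, and 12722 genes passed the same minimum and were tested. The 36 genes comprise a sterol arm of 17 genes, a fatty acid arm of 14 genes and 5 regulators.

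Cells of 2 libraries (siMEF2A) received an siRNA against the transcription factor gene Mef2a, and cells of the other 2 libraries (scrambled) received an siRNA of scrambled sequence. Lipofectamine delivered the siRNA at 30 nM in both groups, which gives a transient silencing in a population of cells. Both then spent 48 h in a differentiation medium of 2% horse serum, so the low serum is shared by all libraries. The comparison asks what silencing of Mef2a does to gene expression in differentiating myoblasts. Separate cultures are not mentioned in the labels, so each p-value reflects the spread among these 4 libraries alone, which may be technical.

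Cells build cholesterol from acetyl-CoA through mevalonate, farnesyl diphosphate and squalene, and they build fatty acids from acetyl-CoA through malonyl-CoA, followed by elongation and desaturation. Both routes are switched on by the SREBP transcription factors, which are held in the endoplasmic reticulum by the escort protein SCAP and the INSIG proteins as long as sterols are plentiful. When sterols run low, SCAP carries SREBP to the Golgi, where it is cut and its free part enters the nucleus. Myotubes draw on both products for their membranes.

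SREBPs bind promoters together with the CCAAT-binding factor NF-Y. Stretches of 5 promoters that hold matches to such binding sequences are shown as examples, which does not place the genes under SREBP control. They come from RefSeq (GRCm38.p6, the assembly behind mm10), read 5′ to 3′ on the strand of the gene and end before the RefSeq transcription start. The Hmgcs1 stretch holds a match to the sterol regulatory element, the Insig1 stretch an E-box and the others CCAAT boxes. Capitals mark a sterol regulatory element searched as TCACNCCAC, an E-box searched as CACGTG and a CCAAT box searched as CCAAT, each on both strands. In the Fasn stretch 2 CCAAT matches on opposite strands overlap.
Hmgcs1 (chr13:119690151-119690330, plus strand): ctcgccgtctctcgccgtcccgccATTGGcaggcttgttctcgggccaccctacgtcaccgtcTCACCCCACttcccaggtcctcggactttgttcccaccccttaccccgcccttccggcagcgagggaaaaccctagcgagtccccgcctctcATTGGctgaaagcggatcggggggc
Fasn (chr11:120824578-120824667, minus strand): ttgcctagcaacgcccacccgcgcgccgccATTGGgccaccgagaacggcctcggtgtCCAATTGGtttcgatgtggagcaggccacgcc
Ebp (chrX:8193543-8193602, minus strand): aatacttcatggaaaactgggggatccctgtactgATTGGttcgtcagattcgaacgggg
Insig1 (chr5:28071282-28071341, plus strand): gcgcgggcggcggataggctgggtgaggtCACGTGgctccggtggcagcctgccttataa
Srebf2 (chr15:82147104-82147168, plus strand): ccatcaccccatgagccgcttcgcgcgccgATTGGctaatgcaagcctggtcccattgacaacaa

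RefSeq promoter windows of 300 bases, from 250 before to 50 after the start, were matched by symbol for 29 of the 36 genes, 39 windows in all. No window was matched for Fdps, Fdft1, Sqle, Stard4, Scd1, Scd2 and Fads1, so their promoters were not searched. A CCAAT box was present in 24 of these 39 windows (61.5%) and in 37.4% of all 32851 windows of that length. The E-box was present in 7 windows (17.9%), against 7.15% of all windows, and the sterol regulatory element in 1 window, that of Hmgcs1, against 1.24% of all windows. The MEF2 consensus was found in 0 of the 39 windows and in 3.19% of all windows. A match is a description of the letters in the window and not of a bound site.

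Silencing of Mef2a left 46.5% of its scrambled level. Mef2a (ENSMUSG00000030557, chromosome 7, 67231163 to 67372858, minus strand) was at 12.7 and 14.3 FPKM in the siMEF2A libraries and at 25.8 and 32.2 FPKM in the scrambled libraries. On the log2 scale this was a change of -1.05 (SE 0.16, limma adjusted p = 1.02e-06). Of 10 markers of myoblasts and myotubes 9 were tested, and each had a lower mean in siMEF2A. Of the 9, 6 passed as lower (limma adjusted p under 0.05), against 1.6% of all genes tested. Among the 6 were Myh3, the embryonic myosin heavy chain, and Ckm, the muscle creatine kinase. Summed over the 9 markers the level was 613 and 651 FPKM in siMEF2A, against 1163 and 1231 FPKM in scrambled. In bulk libraries fewer cells of a type and less RNA per cell cannot be told apart. Myh3 was at 12.3 and 15.1 FPKM in siMEF2A, against 38.3 and 44.8 FPKM in scrambled (log2 fold change -1.53, limma adjusted p = 1.23e-11). Of 8 adipocyte markers 2 were analysed, the fatty acid carrier Fabp4 and Pparg, with a summed level of 3.59 and 4.44 FPKM in siMEF2A and 4.39 and 4.15 FPKM in scrambled. Fabp4 fell to 0.767 and 1.18 FPKM in siMEF2A, against 2.30 and 1.54 FPKM in scrambled (limma adjusted p = 0.0161). Pparg, the adipocyte transcription factor, was at 2.82 and 3.25 FPKM in siMEF2A and at 2.09 and 2.61 FPKM in scrambled, with both siMEF2A libraries higher and no pass of the test (limma adjusted p = 0.798). Of 5 macrophage markers 2 were analysed (0 passed), with sums of 19.0 and 18.5 FPKM in siMEF2A and 15.4 and 17.8 FPKM in scrambled. Most of these sums came from Cd14, at 115% of scrambled, while Cd68 was at 93.7%. Of 6 fibroblast markers 5 were analysed (0 passed), with sums of 1151 and 1432 FPKM in siMEF2A and 865 and 1277 FPKM in scrambled. Col3a1 made up most of these sums, with 835 and 1105 FPKM in siMEF2A and 640 and 963 FPKM in scrambled. The markers did not share a direction. Col3a1, Dcn and Pdgfra had a higher mean in siMEF2A, while Lum and Col1a1 were at 83.9% and 80.5% of scrambled. Of 4 hepatocyte markers 0 were analysed. The part of these cell types in the results below was not tested.

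None of the 36 sterol and fatty acid genes passed the test between siMEF2A and scrambled. The count was 0 of 36 at a limma adjusted p under 0.05, against 2.15% of all genes tested (0.55% higher and 1.6% lower in siMEF2A). Of the genes that passed, 74.4% were lower in siMEF2A, and 91.0% were with median-ratio scaling, which sets the median ratio between libraries to 1. At an unadjusted p under 0.05 the count was also 0 of 36, against 7.28% of all genes tested, and with median-ratio scaling it was 2 of 36, against 7.06% of all genes (0 of 36 after adjustment). All 36 log2 fold changes lay between -0.29 (Tm7sf2) and 0.22 (Elovl6), with standard errors of 0.15 to 0.19. The 95% interval of the difference lay inside a 1.5-fold change either way for 35 of the 36 genes, as it did for 90.2% of all genes tested. The exception was Tm7sf2, whose interval reached from -0.59 to 0.02, and for all 36 the interval lay inside 2-fold. These intervals are on the log2(FPKM + 1) scale and rest mostly on a spread pooled over genes of similar level, since the 4 libraries leave only 2 residual degrees of freedom.

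**Figure D1:**
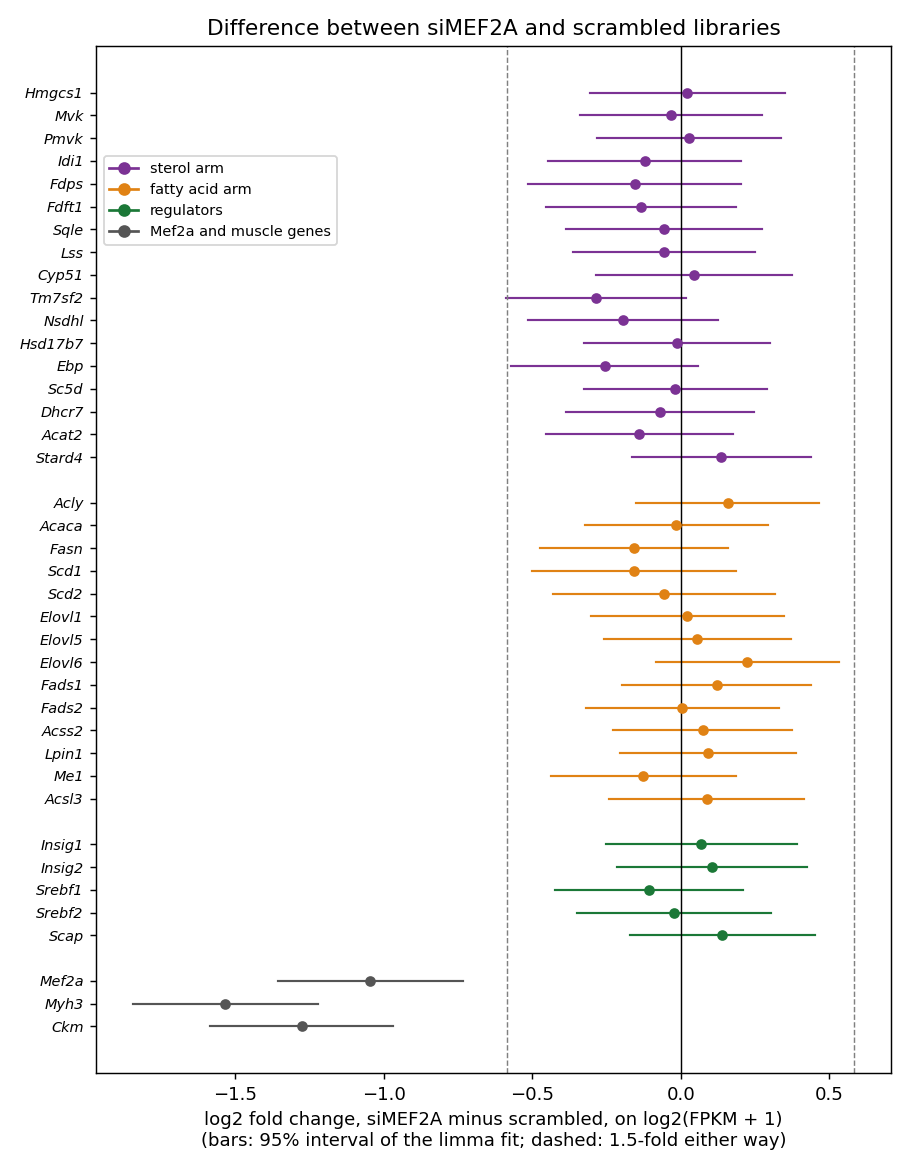
Log2 fold change of each gene, siMEF2A minus scrambled, on the log2(FPKM + 1) scale, with the 95% interval of the limma fit as a bar and dashed lines at 1.5-fold either way. Points are grouped as sterol arm, fatty acid arm and regulators, in the order of the pathway, above Mef2a, Myh3 and Ckm. The 36 genes lie between -0.29 and 0.22, and Mef2a lies at -1.05.

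Levels spanned a wide range, with a desaturase and a prenyl synthase at the top. Scd2, a stearoyl-CoA desaturase of many tissues, averaged 194 FPKM over the 4 libraries, and Fdps, which makes farnesyl diphosphate for sterols and protein prenylation, averaged 185 FPKM. Their order differed between libraries, each being the higher one in 2 of 4. Scd1 followed at 114 FPKM and Acsl3 at 65.1 FPKM, each apart from the gene above it in all 4 libraries. From Acsl3 down to Pmvk (30.3 FPKM) the ranges of all neighbouring genes overlapped. Over the whole order 28 of 35 neighbouring pairs overlapped in range, so most ranks are not separated by these libraries. At the bottom stood Acss2 (5.68 FPKM), Lpin1 (2.65 FPKM) and Acaca (1.27 FPKM), each apart from the gene above it. The Acaca value covers only partial transcripts of 431 and 889 bases, so its rank is not that of the full-length messenger RNA. Among all genes tested Scd2 and Fdps were above 96.6% and 96.4% of genes, and Acaca was above 9.91%. No analysed gene was below the minimum of 0.5 FPKM, and Acaca was the nearest above it.

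**Figure D2:**
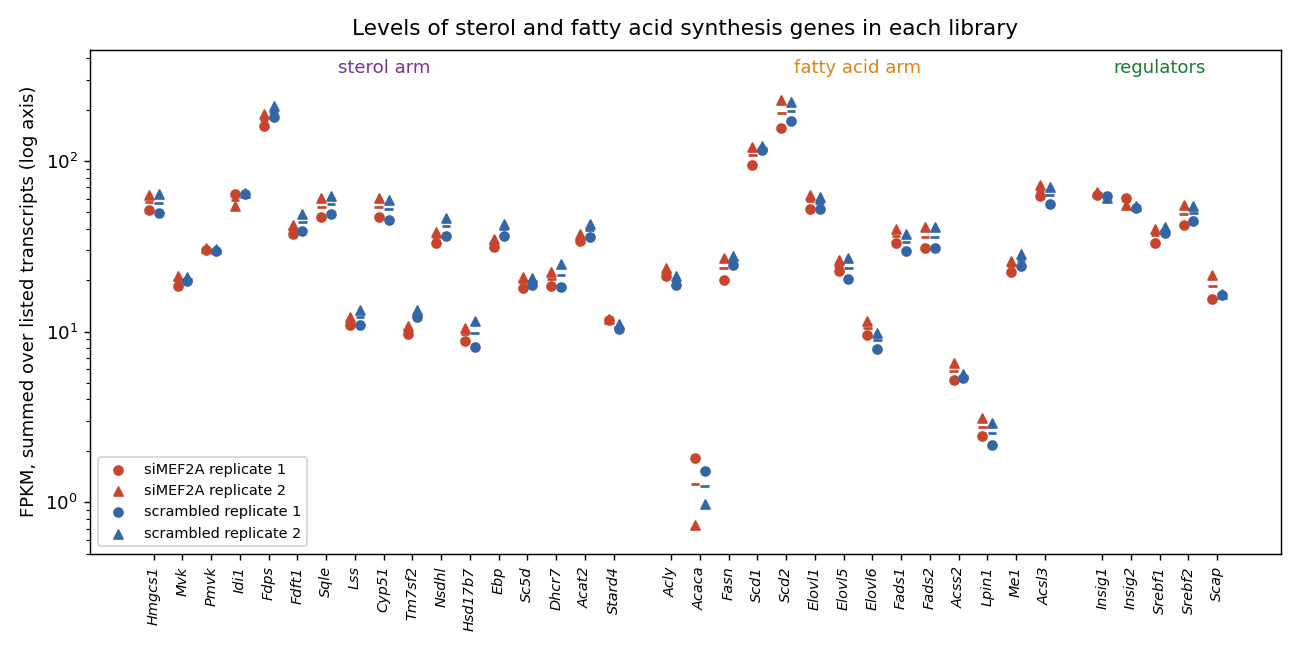
FPKM of each of the 36 genes in each library on a log axis, summed over the listed transcripts. Red marks siMEF2A and blue scrambled, circles replicate 1 and triangles replicate 2, and a short line is the mean of a group. Levels run from about 1 FPKM for Acaca (partial transcripts only) to about 200 FPKM for Scd2, and the groups lie close together for each gene.

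In the sterol arm the genes of the mevalonate steps were at nearly the same level in both groups. Hmgcs1, the synthase that makes HMG-CoA (ENSMUSG00000093930, chromosome 13, 119690379 to 119708260, plus strand), was at 51.7 and 63.1 FPKM in siMEF2A and at 49.6 and 63.7 FPKM in scrambled. The groups overlapped, with replicate 2 the higher one in each, and its log2 difference was 0.02 (SE 0.16, limma adjusted p = 1.0). Its sign turned under each of the 3 other scalings (median-ratio, upper-quartile and quantile). Mvk and Pmvk, the kinases that phosphorylate mevalonate, were at 97.8% and 102% of their scrambled levels. Idi1, the isomerase that supplies dimethylallyl diphosphate (chromosome 13, 8885501 to 8892451, plus strand), was at 64.3 and 54.1 FPKM in siMEF2A and at 63.9 and 64.6 FPKM in scrambled. Its difference of -0.12 (SE 0.16) was 0.001 without siMEF2A replicate 2, the low library. Acat2, the cytosolic thiolase that opens the pathway, was at 90.3% of scrambled with overlapping groups.

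Fdps (ENSMUSG00000059743, chromosome 3, 89093588 to 89101959, minus strand) was at 161 and 189 FPKM in siMEF2A and at 180 and 210 FPKM in scrambled. The groups overlapped, and its log2 difference was -0.16 (SE 0.18, limma adjusted p = 1.0). The next steps are those of Fdft1, which makes squalene, Sqle, which adds oxygen to it, and Lss, which closes it to lanosterol. Fdft1 was at 90.4%, Sqle at 96.1% and Lss at 95.5% of scrambled, each with overlapping groups. Sqle was at 46.6 and 60.6 FPKM in siMEF2A and at 48.8 and 62.7 FPKM in scrambled, so the 2 libraries of a group differed by far more than the groups did.

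From lanosterol to cholesterol, 6 of 7 enzymes had a mean FPKM below that of scrambled, and 2 of them, Tm7sf2 and Ebp, had groups that did not overlap. None passed the test, and both were chosen after their values were seen. Tm7sf2, a sterol reductase (chromosome 19, 6062821 to 6068373, minus strand), was at 9.74 and 10.8 FPKM in siMEF2A and at 12.1 and 13.3 FPKM in scrambled. Both siMEF2A libraries were the lower ones, at 80.6% of scrambled (log2 fold change -0.29, SE 0.15, limma unadjusted p = 0.0644, adjusted p = 0.787). Ebp, the sterol isomerase (chromosome X, 8185329 to 8193512, minus strand), was at 31.4 and 34.8 FPKM in siMEF2A and at 36.5 and 43.0 FPKM in scrambled, which is 83.2% (log2 fold change -0.26 with an SE of 0.16, limma adjusted p = 0.972). Nsdhl, a dehydrogenase of the removal of methyl groups, was at 86.6% of scrambled with overlapping groups (log2 fold change -0.20, SE 0.16). Cyp51, the demethylase that acts on lanosterol, was at 103% of scrambled, and Hsd17b7, which reduces a ketone formed in that removal, at 98.0%. Sc5d, a sterol desaturase, was at 98.9% and Dhcr7, a late sterol reductase, at 94.6%. Stard4, a soluble carrier that moves sterols between membranes, was at 11.7 and 11.9 FPKM in siMEF2A and at 10.3 and 11.0 FPKM in scrambled, with both siMEF2A libraries higher (log2 fold change 0.14 with an SE of 0.15, limma adjusted p = 1.0).

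The difference of Tm7sf2 and Ebp was larger in transcripts annotated as retained introns than in protein-coding ones, a comparison made after the values were seen. The most abundant Tm7sf2 transcript, which is protein-coding, was at 5.88 and 6.20 FPKM in siMEF2A and at 6.11 and 7.17 FPKM in scrambled, with overlapping groups. Its retained-intron transcripts summed to 2.30 and 2.58 FPKM in siMEF2A and to 4.34 and 3.50 FPKM in scrambled, or 62.2% of scrambled. For Ebp these sums were 2.47 and 5.07 FPKM in siMEF2A and 6.72 and 7.33 FPKM in scrambled (53.6%), while its protein-coding transcripts were at 89.6%. With protein-coding transcripts alone, a setting that was added once the values were known, the log2 fold changes were -0.15 for both genes (limma adjusted p = 1.0 for each).

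The fatty acid arm begins with the supply of acetyl-CoA and NADPH. Acly, which splits citrate, was at 21.1 and 23.6 FPKM in siMEF2A and at 18.7 and 21.2 FPKM in scrambled, or 112% with overlapping groups (log2 fold change 0.16, SE 0.15). Acss2, which makes acetyl-CoA from acetate, was at 107% and Me1, a malic enzyme that yields NADPH, at 91.3% of scrambled. Acaca, the carboxylase that makes malonyl-CoA (chromosome 11, 84129672 to 84401651, plus strand), was at 1.83 and 0.732 FPKM in siMEF2A and at 1.52 and 0.981 FPKM in scrambled. Its listed transcripts are 2 partial ones of 431 and 889 bases, so this value does not cover its full-length messenger RNA. Fasn, the synthase that builds palmitate (chromosome 11, 120805846 to 120824547, minus strand), was at 19.99 and 27.1 FPKM in siMEF2A and at 24.4 and 27.9 FPKM in scrambled, with overlapping groups (log2 fold change -0.16, SE 0.16). Its protein-coding transcript of 10050 bases held 43.3% of its FPKM and was at 97.2% of scrambled, and the rest lay in 2 retained-intron transcripts, which summed to 84.9%.

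The stearoyl-CoA desaturases, which place the first double bond, were the most abundant genes of the arm. Scd2 (chromosome 19, 44293674 to 44306864, plus strand) was at 156 and 226 FPKM in siMEF2A and at 172 and 223 FPKM in scrambled. Scd1 (chromosome 19, 44394455 to 44407879, minus strand) was at 95.0 and 122 FPKM in siMEF2A and at 117 and 123 FPKM in scrambled. In both genes the groups overlapped, and siMEF2A replicate 1 was the lowest library. The log2 fold changes were -0.06 (SE 0.19) for Scd2 and -0.16 (SE 0.17) for Scd1, with a limma adjusted p of 1.0 each, and without siMEF2A replicate 1 both were above 0, at 0.21 and 0.02. Scd1 and Scd2 are related in sequence, and how reads that match both were counted is not stated in the processing notes. Fads1 and Fads2, the desaturases of polyunsaturated fatty acids, were at 109% and 100% of scrambled.

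Among the elongases, Elovl6, which lengthens palmitate, was at 9.50 and 11.5 FPKM in siMEF2A and at 7.93 and 9.81 FPKM in scrambled. This was the largest positive difference of the 36 genes (119% of scrambled, log2 fold change 0.22, SE 0.15, limma unadjusted p = 0.153, adjusted p = 1.0), and its groups overlapped. Elovl6 was chosen after its values were seen. Elovl1 and Elovl5 were at 102% and 103% of scrambled. Acsl3, which activates fatty acids for lipid droplets (chromosome 1, 78657825 to 78707743, plus strand), was at 62.0 and 71.9 FPKM in siMEF2A and at 56.0 and 70.4 FPKM in scrambled, or 106% (log2 fold change 0.09 with an SE of 0.16, limma adjusted p = 1.0). Lpin1, a phosphatidate phosphatase, was at 109% of scrambled. Its 2 listed transcripts had different patterns, with Lpin1-202 at 1.48 and 1.47 FPKM in siMEF2A and at 0.255 and 1.40 FPKM in scrambled, and Lpin1-201 at 0.947 and 1.62 FPKM in siMEF2A and at 1.91 and 1.51 FPKM in scrambled. The low value of Lpin1-202 came from scrambled replicate 1 alone.

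None of the 5 regulators of SREBP activity passed the test. Srebf2, the gene of the SREBP that favours sterol synthesis (ENSMUSG00000022463, chromosome 15, 82147181 to 82205379, plus strand), was at 42.4 and 55.5 FPKM in siMEF2A and at 44.6 and 54.5 FPKM in scrambled. The groups overlapped almost fully (log2 fold change -0.02 with an SE of 0.16, limma adjusted p = 1.0). Srebf1, the gene of the SREBP that favours fatty acid synthesis (ENSMUSG00000020538, chromosome 11, 60199089 to 60222581, minus strand), was at 33.0 and 40.2 FPKM in siMEF2A and at 37.8 and 40.9 FPKM in scrambled (log2 fold change -0.11 with an SE of 0.16, limma adjusted p = 1.0). The sign of its difference depended on which transcripts were counted. Its most abundant transcript, Srebf1-201, was at 12.1 and 15.7 FPKM in siMEF2A and at 12.9 and 12.8 FPKM in scrambled, which gave a log2 fold change of 0.10 where the most abundant transcript stood for the gene.

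Scap (chromosome 9, 110333288 to 110384950, plus strand), the gene of the escort of SREBP, was at 15.5 and 21.3 FPKM in siMEF2A and at 16.3 and 16.6 FPKM in scrambled. The high value was that of siMEF2A replicate 2, and without it the log2 fold change was -0.08, against 0.14 (SE 0.16, limma adjusted p = 1.0) with all libraries. Insig1 (chromosome 5, 28071363 to 28078662, plus strand), which retains SCAP and is itself a target of SREBP, was at 63.5 and 65.9 FPKM in siMEF2A and at 62.5 and 60.7 FPKM in scrambled. Both siMEF2A libraries were the higher ones, at 105% of scrambled (log2 fold change 0.07 with an SE of 0.16, limma adjusted p = 1.0). Insig2 (chromosome 1, 121304353 to 121332589, minus strand), its relative, was at 60.3 and 55.5 FPKM in siMEF2A and at 53.1 and 54.2 FPKM in scrambled, or 108% with both siMEF2A libraries higher (log2 fold change 0.11 with an SE of 0.16, limma adjusted p = 1.0). Within Insig2 the protein-coding transcript Insig2-208 was at 9.63 and 10.6 FPKM in siMEF2A and at 7.94 and 6.81 FPKM in scrambled, while the retained-intron transcript Insig2-206 was at 4.74 and 5.57 FPKM in siMEF2A and at 7.59 and 6.84 FPKM in scrambled. Transcripts were not tested one by one.

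Retained-intron transcripts were then summed for every gene with at least 1 FPKM in such transcripts and in protein-coding ones. This held for 8 of the 36 genes (Acsl3, Dhcr7, Ebp, Fasn, Insig2, Lss, Sqle and Tm7sf2) and for 2121 of all genes tested. The retained-intron sum was lower in siMEF2A for all 8, with a median of 78.7% of scrambled, against 60.9% of the 2121 genes lower and a median of 96.3%. Both siMEF2A libraries lay below both scrambled ones for 4 of the 8 (Dhcr7, Ebp, Insig2 and Tm7sf2), against 17.3% of the 2121 genes. Of these 4, Tm7sf2 and Ebp were examined first, after their values were seen, and a lower Insig2 transcript was also known beforehand. The counts over the 8 genes therefore include genes already seen to be lower. For Acsl3, Fasn, Lss and Sqle the groups overlapped. The protein-coding sums of the same 8 genes had a median of 96.8% of scrambled and those of the 2121 genes a median of 104%. Dhcr7 had retained-intron sums of 1.22 and 0.933 FPKM in siMEF2A and of 1.30 and 1.54 FPKM in scrambled, so some of these values are small, and no test was made of the sums.

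Whether the 2 groups overlapped depended on the scaling between libraries. With FPKM as deposited both siMEF2A libraries lay above both scrambled ones for 3 of 36 genes (Stard4, Insig1 and Insig2) and below them for 2 of 36 (Tm7sf2 and Ebp). Over all genes tested these shares were 18.9% above and 9.91% below, or 28.9% in either direction. With median-ratio scaling they were above for 2 of 36 (Stard4 and Acly), against 14.6% of all genes, and below for 10 of 36, against 14.5%. Those 10 were the sterol genes Acat2, Mvk, Fdps, Fdft1, Nsdhl, Tm7sf2 and Ebp, together with Scd1, Me1 and Srebf1. Stard4, Tm7sf2 and Ebp were thus apart under both, and Insig1 and Insig2 only with the values as deposited.

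Set against each other, the sterol arm had a slightly lower median log2 fold change than the fatty acid arm. Of 17 sterol genes 13 had a mean log2 level below scrambled and 4 above, with a median log2 fold change of -0.06. Of 14 fatty acid genes 5 were below and 9 above, with a median of 0.04, and the 5 regulators had a median of 0.07. Of all 12722 genes tested 4692 were below and 8030 above, so more lay above than below, as in the fatty acid arm. The median over all genes tested was 0.04, so that relative to all genes the sterol median stood at -0.10 and the fatty acid median at -0.004. With median-ratio scaling, which moved the median of all genes to -0.002, 16 sterol genes were below and 1 above (median -0.11), while 7 fatty acid genes were below and 7 above (median -0.01). The mean of log2(FPKM + 1) over the sterol genes exceeded that over the fatty acid genes by 0.36 and 0.30 in the siMEF2A libraries and by 0.42 and 0.44 in the scrambled libraries. This gap was smaller in both siMEF2A libraries, at 0.33 ± 0.04 in siMEF2A and 0.43 ± 0.02 in scrambled (SD, n = 2 each). No test was made of a value over chosen genes. The most abundant transcripts had a median length of 2758 bases in the sterol arm and of 3374 bases in the fatty acid arm. Both lengths lie between 1765 and 3383 bases, and all genes tested in that range had a median log2 fold change of 0.05. It was -0.004 among those with transcripts of up to 1764 bases and 0.07 among those of 3384 bases or more. For the 36 genes the medians of the same classes were -0.03, -0.03 and -0.01, from short to long. The part of transcript length in the difference between the arms was not tested.

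The 2 medians themselves were not stable. The sterol median was -0.23 without scrambled replicate 1 but 0.05 without siMEF2A replicate 1 and 0.05 without scrambled replicate 2, and the fatty acid median was -0.08 without scrambled replicate 1 and -0.06 without siMEF2A replicate 2 but 0.20 without siMEF2A replicate 1. Their difference, -0.10 with all libraries, stayed below 0 when any 1 library was left out (-0.15 to -0.08). It shrank to -0.03 where the most abundant transcript stood for each gene, and to -0.06 where Srebf2, Scap, Insig1 and Insig2 were counted with the sterol arm and Srebf1 with the fatty acid arm.

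**Figure D3:**
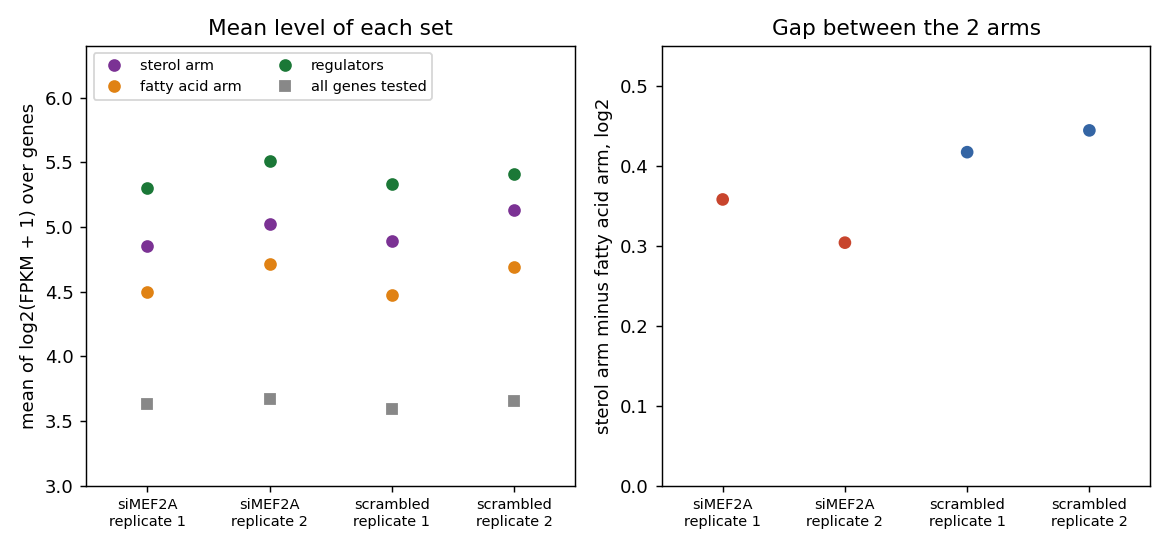
Left, the mean of log2(FPKM + 1) over the genes of each set in each library. Right, the sterol arm minus the fatty acid arm in each library, which was 0.36 and 0.30 in siMEF2A (red) and 0.42 and 0.44 in scrambled (blue).

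For most of these genes the gap within a group exceeded the gap between siMEF2A and scrambled. Replicate 2 was above replicate 1 in both groups for 32 of 36 genes, against 48.5% of all genes tested. This held for 16 of 17 sterol genes (Idi1 was the exception), 13 of 14 fatty acid genes (all but Acaca) and 3 of 5 regulators (Srebf1, Srebf2 and Scap). The median of replicate 2 minus replicate 1 over the 36 genes was 0.22 in siMEF2A and 0.23 in scrambled on the log2(FPKM + 1) scale, against medians of 0.07 and 0.08 over all genes tested. For 25 of 36 genes the difference within each group was larger than the difference between the groups, against 50.5% of all genes tested. Scd2 had the largest excess of replicate 2 in siMEF2A, with 226 FPKM in replicate 2 and 156 FPKM in replicate 1, and Hsd17b7 the largest in scrambled, with 11.6 FPKM in replicate 2 and 8.08 FPKM in replicate 1.

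Over all genes tested, a higher value in replicate 2 went along with transcript length. Among those with a most abundant transcript of 3384 bases or more (the long class, 1 of 3 equal classes), 73.6% were higher in replicate 2 of both groups. The share was 52.7% in the middle class and 20.8% in the short class, of up to 1764 bases. Of the 36 genes, all 15 in the long class, 11 of 14 in the middle class and 6 of 7 in the short class were higher in replicate 2 of both groups. Most of the 36 genes were thus higher in replicate 2 in every length class. The 6 short genes were Fdps, Pmvk, Mvk, Tm7sf2, Ebp and Elovl1, and the one short gene that was not was Acaca. The part of transcript length in the excess was not tested beyond these counts. The labels do not say that libraries with the same number were handled together.

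**Figure D4:**
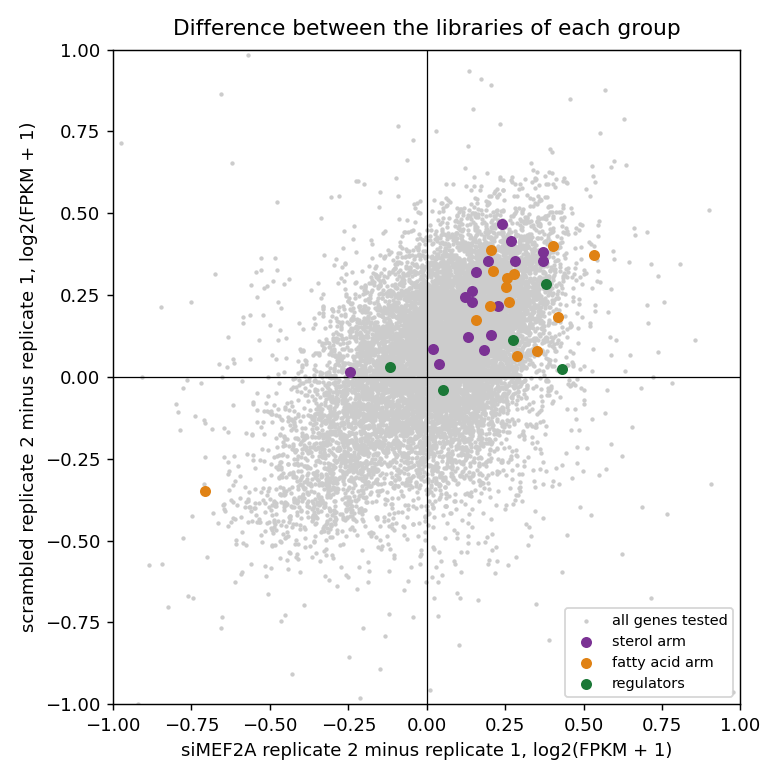
Replicate 2 minus replicate 1 in siMEF2A (horizontal) and in scrambled (vertical), in log2(FPKM + 1), for all genes tested in grey and for the 3 sets in colour. Axes end at 1 log2 unit either way, which leaves 45 genes outside. Of the 36 genes, 32 lie above and to the right of 0, where replicate 2 was higher in both groups.

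No gene of the wider pathway lists passed the test either. Among 19 other genes of sterol synthesis and its control, all tested, 0 passed limma in either direction, and before adjustment 0 were under 0.05, against 2.15% and 7.28% of all genes tested. The median log2 fold change of this list was 0.11, above the 0.04 of all genes tested, whereas that of the 17 sterol arm genes was -0.06. Erlin1, which takes part in protein degradation at the endoplasmic reticulum, had the smallest p of that list, at 15.9 and 16.9 FPKM in siMEF2A and 11.9 and 14.4 FPKM in scrambled (log2 fold change 0.30, limma unadjusted p = 0.0514, adjusted p = 0.694). Por, the reductase that feeds electrons to Cyp51 and Sqle, came next at 118% of scrambled. Of 19 genes of sterol uptake, storage and efflux 15 were tested and 0 passed in either direction, also at an unadjusted p under 0.05, and the median log2 fold change was 0.07. Its genes with the smallest p were Nceh1, a cholesterol ester hydrolase, at 119% of scrambled, and Abca1, the cholesterol exporter, at 0.608 and 0.717 FPKM in siMEF2A and 0.491 and 0.421 FPKM in scrambled.

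Of 32 other genes of fatty acid and glycerolipid synthesis 27 were tested, and 0 passed limma in either direction, while 2 of the 27 had an unadjusted p under 0.05, a share close to the 7.28% of all genes tested. Its 27 genes had a median log2 fold change of 0.01, against 0.04 over all genes tested. The 2 genes are named for their small p alone. Ptpla, now Hacd1, a dehydratase of very-long-chain fatty acid elongation that is prominent in muscle, was at 69.0 and 80.3 FPKM in siMEF2A and at 109 and 102 FPKM in scrambled. Both siMEF2A libraries were lower, at 70.7% of scrambled (log2 fold change -0.50, SE 0.17, limma unadjusted p = 0.00388, adjusted p = 0.130). Ptplad2, now Hacd4, a relative in the same family, was at 11.6 and 13.3 FPKM in siMEF2A and at 9.17 and 10.5 FPKM in scrambled, with both siMEF2A libraries higher at 127% (log2 fold change 0.31, SE 0.15, limma unadjusted p = 0.0448, adjusted p = 0.650).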

How the data were processed

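RNA from 2 siMEF2A and 2 scrambled C2C12 libraries, made with a TruSeq kit per the labels, was used as FPKM that the authors deposited per Ensembl transcript, per the file headers. Tools listed in the submitters' processing notes are Bowtie, TopHat, Cufflinks, CASAVA and Trimmomatic, with the build mm10. Their versions and settings, the annotation, the scaling between libraries and any use of strand are not given in the sources used for this report, so overlapping genes cannot be told apart and reads shared by related genes may be split.

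FPKM was summed per symbol, and after removal of 81 small RNA symbols every gene averaging 0.5 FPKM or more was tested on log2(FPKM + 1), which understates changes of low genes. limma 3.58.1 in R 4.3.3 (trended moderation, two-sided, Benjamini-Hochberg over 12722 genes, called at adjusted p under 0.05) compared the groups without a replicate block. Tested on simulated data for this comparison with 12722 genes, it recovered 70.1% of 67 genes changed 1.5-fold and 100% of 67 changed 2-fold, with 12 false calls among 192. Changes were set on the log2(FPKM + 1) scale, in genes with a mean above 2 on that scale, so lower genes such as Lpin1 and Acaca are not covered. The noise was normal and independent between libraries, without the shift that same-numbered libraries share in these data. Gene coordinates, transcript lengths and types came from GENCODE M21 (mm10), which held 97.3% of 36231 transcripts by identifier.

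Absolute depth is unknown. Among 600 low genes the commonest ratio between libraries (within 0.3%, shared by 11 to 17 genes) put depth relative to scrambled replicate 1 at 0.849 in siMEF2A replicate 1, 0.849 in siMEF2A replicate 2 and 1.05 in scrambled replicate 2. No counting interval was computed.

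The genes and lists were chosen with earlier results of these data known. Genes described with every value were those that passed, those whose groups did not overlap with a log2 fold change of at least 0.3 either way, the 3 highest of each arm, the 5 regulators and the gene nearest the minimum. Others were chosen after their values were seen. Alternatives covered the minimum level, pseudocount, scaling, small RNAs, moderation, transcript choice, a replicate block and leaving out each library.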

Additional observations from a re-analysis of the deposited data

How the results depend on the processing

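No analysed gene of the set passed under any of the 18 alternatives (0 of 34 with a minimum mean of 5 FPKM, where Acaca and Lpin1 were not tested, and 0 of 36 in the others), with the smallest adjusted p at 0.0933 (Tm7sf2 with the replicate block). The count over all genes tested, 273, was 128 with a minimum mean of 5 FPKM, 139 with quantile normalization and 175 with small RNA symbols kept, and 198 to 246 when 1 library was left out. The replicate numbers are shared by the groups, but the labels do not say that they pair libraries, and with 2 numbers the correlation of same-numbered deviations (0.276) does not settle it. With the replicate number as a block 579 genes passed, 331 of them lower, and 3 of the 36 genes had an unadjusted p under 0.05, against 16.2% of all genes in that fit. Between the arms, the difference of medians was -0.0336 with the most abundant transcript, -0.0551 with regulators counted in the arms, and -0.153 to -0.0808 when 1 library was left out. The sterol median then ran from -0.234 to 0.0470, and the fatty acid median from -0.0842 to 0.200. Hmgcs1 was at -0.0287 with median-ratio scaling, -0.0169 with upper-quartile scaling and -0.00557 with quantile normalization, and Scd2 at 0.0111 with quantile normalization. Srebf1 was at 0.102 with the most abundant transcript and at 0.0263 with protein-coding transcripts alone. Leaving out 1 library gave ranges of -0.155 to 0.200 for Hmgcs1, -0.244 to 0.00142 for Idi1, -0.323 to 0.21 for Scd2, -0.333 to 0.02 for Scd1, -0.0753 to 0.249 for Acsl3, -0.245 to 0.0312 for Srebf1, -0.214 to 0.167 for Srebf2, -0.0756 to 0.357 for Scap and -0.368 to 0.338 for Acaca. All of these are log2 fold changes, and the cause of the shifts was not tested. Absolute depth is unknown, so its limit on low values was not measured.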
